A study of Dorcoceras hygrometricum with 51 samples.

Results

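Promoter methylation was compared between the dried leaves of acclimated and non-acclimated Boea hygrometrica plants 4 w after the acclimation period. The promoters were those with a methylation level both in A4D and in F4D, joined on the gene identifier, which left 18593 of the 18771 promoters measured in any of the 12 bisulfite libraries of the series. A4D held 18652 promoters and F4D 18645. A promoter is the 2-kb stretch upstream of the protein-coding region. As the study describes it, the level of a promoter is the average over its cytosines in a context, CG, CHG or CHH (H being A, C or T). The level of a cytosine is its percentage of methylated reads.

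Boea hygrometrica is a resurrection plant, a species whose leaves survive drying to an air-dry state. Seeds came from a wild, mainly outcrossing population and were mixed before sowing, so the pools hold plants of different parents. A4D plants were 3-month-old seedlings that were acclimated by slow drying of the soil for 14 d and re-watering for 3 d, grown on in a watered greenhouse for 4 w and then dried rapidly in air for 2 d. F4D plants were grown on for the same time without acclimation and dried in the same way. Each bisulfite library was made from equal amounts of DNA of 6 biological replicates, each a pool of about 45 leaves of at least 15 plants, and there was 1 such library for each group. The methylation values therefore have no replicate, and no test, error or p-value is given for them. Differences are in percentage points, A4D minus F4D, and 20 points was taken as the smallest change to be counted. The number of reads behind a promoter is unknown here. RNA was measured in 3 libraries for each of A4D and F4D, of 39 in the series, as FPKM, a fragment number scaled to transcript length and library depth. Tests of RNA use the spread between replicates over all 39 libraries. It can be wider or narrower than that of the A4D and F4D libraries printed beside a test.

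In plants, CG methylation is copied after replication by MET1, CHG methylation is kept by the chromomethylase CMT3, and CHH methylation is set anew by DRM2, which is guided by small RNAs in RNA-directed DNA methylation. Glycosylases of the DEMETER and ROS1 family remove the mark. Methylation of a promoter is known to go with low transcription in many plants, although genes differ widely in this.

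The transcripts were those of leaves. The small chain of rubisco stood at 453 to 814 FPKM in the A4D libraries, against 303 to 638 FPKM in the F4D libraries. The summed level of 3 rubisco activase genes was 161 to 199 FPKM in A4D and 164 to 224 FPKM in F4D. The summed level of 14 chlorophyll a/b-binding proteins was 3166 to 8025 FPKM in A4D and 2273 to 3608 FPKM in F4D. Of 10 floral homeotic genes, 8 were under 1 FPKM in A4D and 8 in F4D, and the 6 casparian strip genes of roots summed to at most 5.05 FPKM in A4D and 6.64 FPKM in F4D. The matches to seed storage and pollen-specific names were not at 0 (22 genes at 283 to 580 FPKM in A4D and 442 to 769 FPKM in F4D, and 9 genes at 65.1 to 101 FPKM in A4D and 122 to 156 FPKM in F4D), and each sum was led by 1 gene. The leading seed storage match, KZV16600, is a member of the wide lipid-transfer and albumin superfamily, and the leading pollen match is KZV27492. In such bulk samples, fewer cells of a type and less RNA per cell cannot be told apart.

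The 2 dried-leaf profiles were close to each other. The median promoter had 58.5% mCG in A4D and 60.7% in F4D, 46.3% mCHG in A4D and 48.7% in F4D, and 15.1% mCHH in A4D and 15.96% in F4D. The levels spread over the whole range, with 35.2% of promoters at 80% mCG or more in A4D (36.2% in F4D) and 14.5% under 5% mCG in A4D (14.2% in F4D). Promoter by promoter, the median difference was −0.37 points in CG, −0.08 points in CHG and −0.39 points in CHH. The differences had a standard deviation across promoters of 8.28 points in CG, 6.63 points in CHG and 4.74 points in CHH. Within 5 points of each other lay 70.4% of promoters in CG, 77.1% in CHG and 83.02% in CHH.

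Promoters past 20 points were few, and more of them were lower than higher in A4D in every context. In CG, 227 promoters were higher in A4D by at least 20 points (1.22% of all) and 441 were lower (2.37%). In CHG, 113 were higher (0.608%) and 283 lower (1.52%), and in CHH 29 were higher (0.156%) and 121 lower (0.651%). In all, 904 promoters (4.86%) were past 20 points in at least 1 context, and the differences ran from −97.9 to 83.8 points in CG, from −81.2 to 83.3 points in CHG and from −66.7 to 44.0 points in CHH. Of the promoters past 20 points, 91 of 668 in CG, 55 of 396 in CHG and 8 of 150 in CHH stood at exactly 0 or 100% in one of the libraries.

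**Figure D1:**
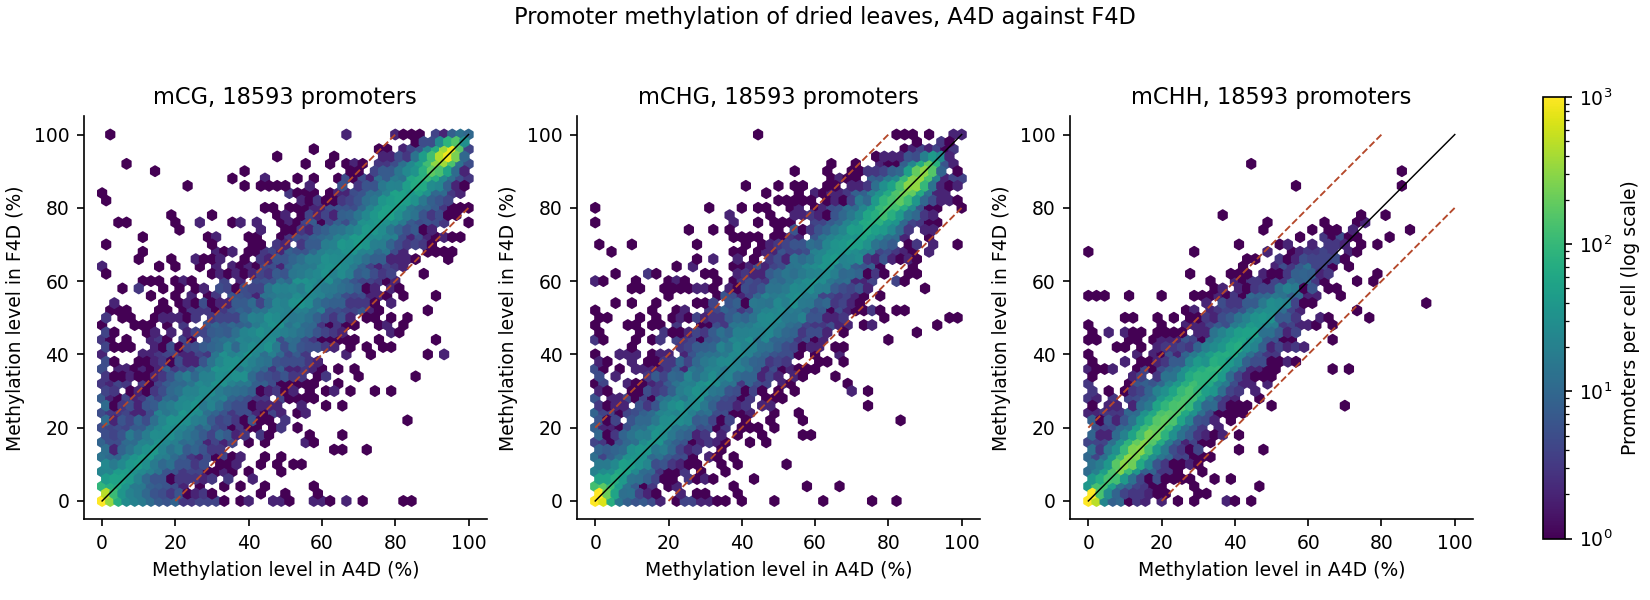
Methylation level of each promoter in A4D (x axis, %) and in F4D (y axis, %) in the CG, CHG and CHH contexts, with colour giving the number of promoters per cell on a log scale. The solid line marks equal levels and the dashed lines 20 points of difference. Most of the 18593 promoters lie between the dashed lines, and the cells beyond them hold 227 and 441 promoters in CG, higher and lower in A4D.

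Differences were also set out by the level of the promoter, taken as the mean of A4D and F4D. A mean under 10% or over 90% leaves no room for a difference beyond 20 points, so the few promoters past 20 points in the outermost classes follow from the classes themselves. Among promoters with a mean CG level of 20 to 30%, the standard deviation of the differences was 12.96 points and 9.46% were past 20 points. Among those at 40 to 50%, where the room is widest, it was 13.1 points and 9.07% were past 20 points. The median difference also varied between classes. In CHG the median difference was −2.35 points at 40 to 50%, but 0.29 points at 80 to 90%. In CHH the median difference was near 0 below 10% and between −2.42 and −2.65 points in the classes from 30 to 70%.

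**Figure D2:**
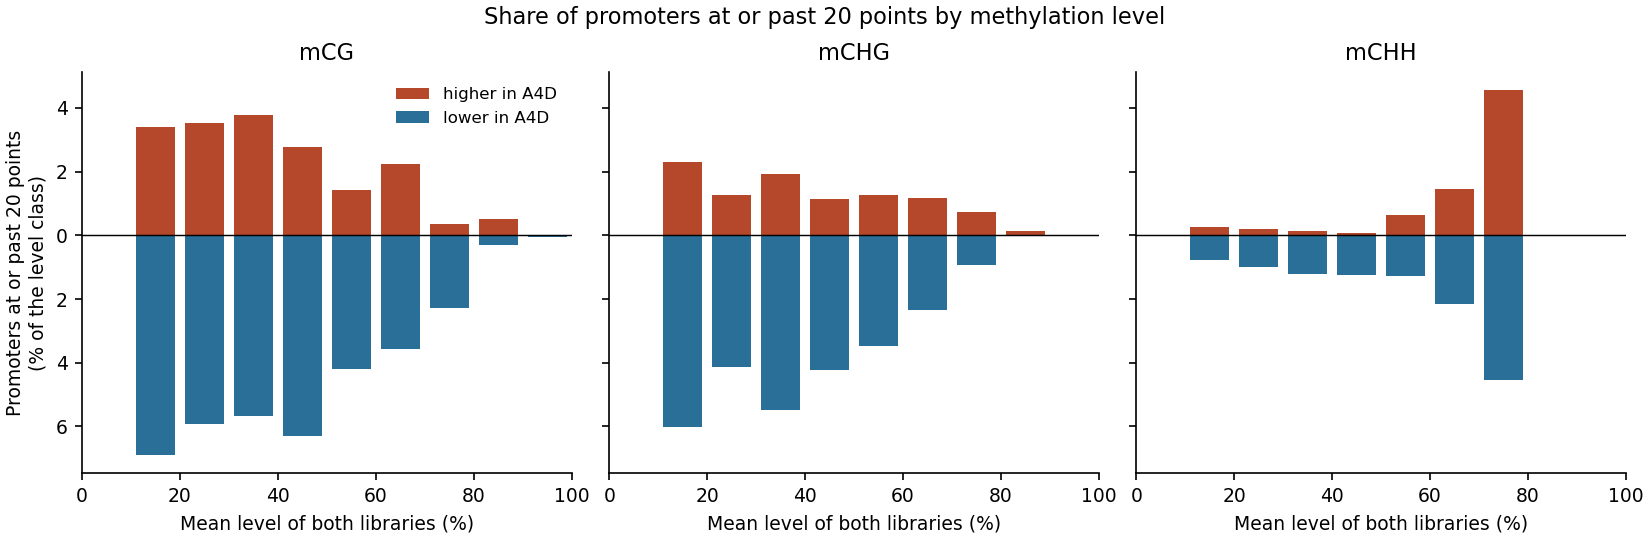
Share of promoters at or past 20 points (y axis, % of the promoters of a level class) by mean level of A4D and F4D (x axis, classes of 10%), with promoters higher in A4D above the line and lower in A4D below it. In CG the shares lie between 9.07 and 10.3% from 10 to 50%. Below 10% and above 90% a mean leaves no room for more than 20 points, so the shares near 0 there are set by the classes. The last CHH class drawn holds only 22 promoters.

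The contexts moved together within a promoter, as far as the same reads and the same window in 1 pair of libraries can show. Across the 18593 promoters, the CG and CHG differences had a Pearson r of 0.54, the CG and CHH differences 0.43 and the CHG and CHH differences 0.58. Of the promoters past 20 points in CG, 148 were also lower in A4D by as much in CHG and 51 higher in both, and 2 went in opposite directions. In all 3 contexts at once 52 promoters were lower in A4D and 14 higher. Promoters 20 points or more lower in CHG had a median CHH difference of −12.8 points, and those 20 points or more higher in CHG had one of 9.28 points.

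The promoters with the largest differences include genes of metabolism, the cytoskeleton and protein turnover. They are taken as the 5 largest in each direction and context among genes with a named product and a mean of at least 1 FPKM in A4D or F4D, so their size is a description of how they were chosen. Their names rest on the locus tag of each row, and whether the methylation values belong to that tag was not tested on the values. Set against the other 10 bisulfite libraries, they show 3 arrangements, in which A4D stood apart, F4D stood apart or the other libraries were themselves split. These arrangements can overlap in a promoter.

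In the first arrangement A4D stood apart. The promoter of KZV51755, a lysosomal alpha-mannosidase that trims glycans (gene at 278657 to 286282 of scaffold KQ991570.1 of the study's assembly), had 2.22% mCG in A4D and 82.1% in F4D, while the other 10 libraries ranged from 48.1 to 83.4%. Its CHG level was 0% in A4D and 52.1% in F4D, with the others at 30.3 to 63.7%. The promoter was thus the lowest of all 12 libraries in A4D in both contexts. KZV57693, a cytosolic glyceraldehyde-3-phosphate dehydrogenase of glycolysis, had 2.73% mCHH in A4D and 43.8% in F4D, with the others at 17.1 to 48.1%. KZV36480, an O-glucosyltransferase, had 0% mCHG in A4D and 59.8% in F4D, with the others at 28.1 to 72.3%. On the higher side, KZV42261, MLP-like protein 43 of the major latex protein family (177244 to 178004 of scaffold KQ999284.1), had 83.3% mCHG in A4D and 21.9% in F4D, with the others at 0 to 26.9%, and 34.6% mCHH in A4D and 5.14% in F4D, with the others at 0.146 to 4.59%. In these promoters A4D lay outside the range of the other 10 libraries in the contexts given, and F4D lay within it for all but the CHH level of KZV42261.

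In the second arrangement F4D stood apart. The promoter of KZV17513, subunit 1 of dolichol-phosphate mannosyltransferase, which makes the mannose donor for glycosylation (25254 to 28759 of scaffold KV018179.1), had 82.2% mCG in A4D and 0% in F4D, while the others ranged from 69.2 to 93.5%. It had 74.5% mCHG in A4D and 0% in F4D, with the others at 62.3 to 84.9%, and 32.8% mCHH in A4D and 2.02% in F4D, with the others at 19.1 to 52.6%. The promoter was methylated in 11 of the 12 libraries in all contexts and nearly without methylation in F4D.

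In the third arrangement the other libraries split into low and high ones. The promoter of KZV24309, plasma membrane-associated cation-binding protein 1, had 0% mCG in A4D and 63.1% in F4D, and it was at 0% in 7 of the other libraries (A4, F4, F18D, A18, AD, A and F) and at 67.9, 61.2 and 45.0% in A18D, F18 and SD. The promoter of KZV36203, fimbrin-1, which bundles actin filaments (61954 to 66865 of scaffold KV003914.1), had 11.3% mCG in A4D and 72.3% in F4D, and the others were spread from 0 to 63.0%. Its CHH level was 2.95% in A4D and 55.6% in F4D, with the others at 0 to 45.9%. F4D was thus also the highest of the 12 libraries for fimbrin-1 in both contexts. The promoter of KZV26078, a malonate-CoA ligase, had 61.2% mCHG in A4D and 0% in F4D, and it was at 67.7, 66.9, 60.0 and 40.6% in A4, F18, F and AD and at 0% in the other 6. The promoter of KZV56492, phosphoethanolamine N-methyltransferase of phosphocholine synthesis, had 0% mCHH in A4D and 66.7% in F4D, with 46.4 and 37.3% in A18D and F and at most 1.11% in the rest measured. The high and low libraries of these promoters do not divide by acclimation, by drying or by time.

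**Figure D3:**
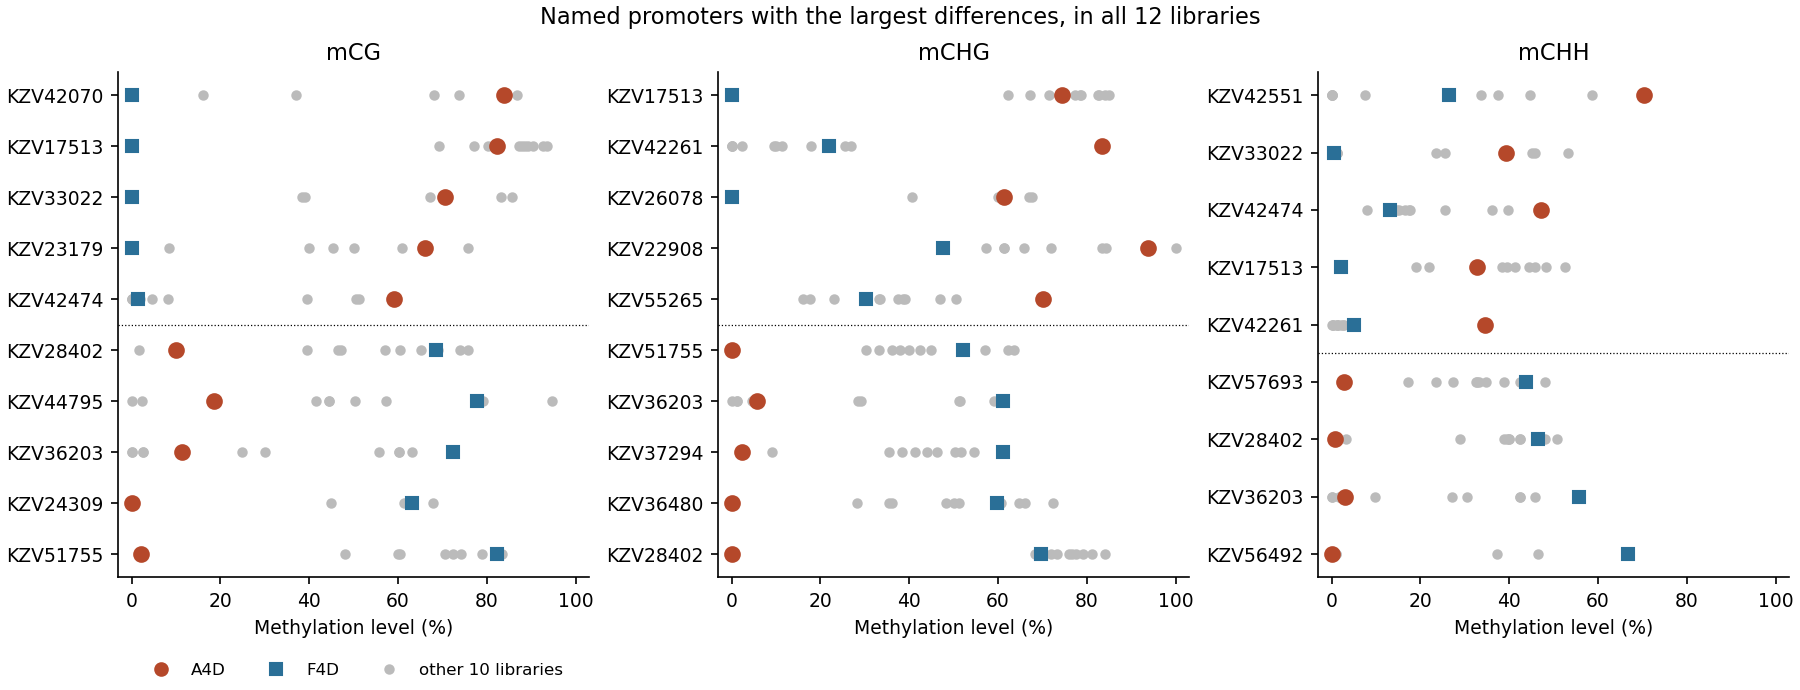
Methylation level (x axis, %) of named promoters among the 5 largest differences in each direction and context, with A4D as a red circle, F4D as a blue square and each other bisulfite library with a value as a grey circle. Promoters above the dotted line were higher in A4D and those below it lower. KZV17513 has F4D alone at 0% mCG, KZV51755 has A4D alone at 2.22% mCG, and the grey circles of KZV36203 span 0 to 63.0%.

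The promoters past 20 points were then followed in the other 10 libraries. Since they were chosen for a wide gap between A4D and F4D, intermediate levels elsewhere are largely fixed by the choice. Among the 200 promoters higher in A4D in CG that had a value in all 12 libraries, the median level was 49.7% in A4D and 20.2% in F4D, and the medians of the other libraries ran from 31.6 to 41.8%. Among the 408 lower in A4D, it was 22.8% in A4D and 53.7% in F4D, and the other medians ran from 30.5 to 44.5%. In CHH, among the 21 promoters higher in A4D, the median was 36.9% in A4D and 9.89% in F4D, and the highest of the other medians was 39.2%, above A4D. Of the 408 promoters lower in A4D, A4D was below all the other 10 libraries in 105, F4D was above all of them in 130, and both lay inside the range of the others in 191. Over all 18186 promoters A4D was below all others in CG in 777 and F4D above all in 1685, so the larger number for F4D was also seen without the choice. Of the 200 higher in A4D, A4D was above all others in 65, F4D below all in 46 and both inside their range in 98. Over all 18186 promoters these numbers were 1289, 537 and 14371. Of the 260 promoters lower in CHG, A4D was below all others in 91 and F4D above all in 71, and of the 110 lower in CHH these numbers were 39 and 46. Over all promoters they were 887 and 1260 in CHG and 916 and 997 in CHH. In CHG the larger number was thus that of A4D among the chosen promoters and that of F4D over all.

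These promoters also varied more among the other libraries, which had no part in choosing them. The range of CG levels over the other 10 libraries had a median of 38.6 points for promoters higher in A4D and of 36.7 points for those lower, against 14.7 points for all promoters. Without A4, a library that stood apart from all the others, these medians were 37.0 and 35.1 points. Among promoters with a median of 20 to 80% in the other libraries, the ranges were 39.6 points for those higher and 38.7 points for those lower, against 20.6 points for all. The number of reads per promoter could not be set beside these ranges, and its part in them was not tested.

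**Figure D4:**
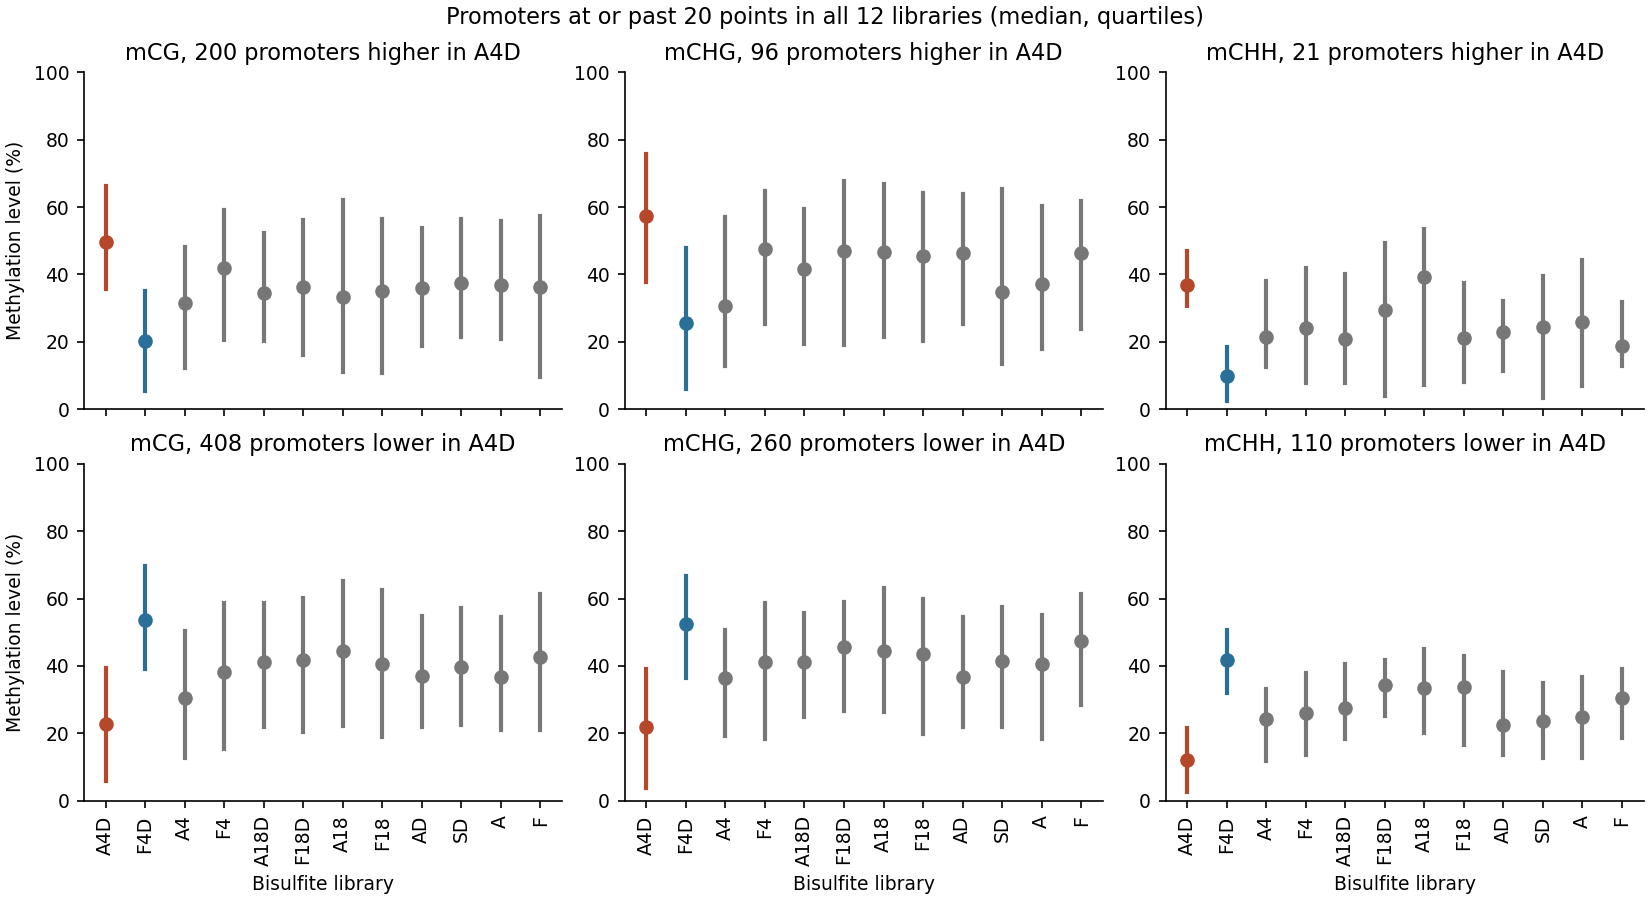
Methylation level (y axis, %) of the promoters at or past 20 points, as median (circle) and quartiles (line) over promoters, in each of the 12 bisulfite libraries (x axis), with A4D in red, F4D in blue and the others in grey. The upper panels show promoters higher in A4D and the lower panels those lower in A4D. In CG the other libraries have medians of 31.6 to 41.8% in the upper panel and 30.5 to 44.5% in the lower panel, between A4D and F4D.

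The differences of individual promoters were compared with those in the other acclimated and non-acclimated pairs, none of which shares a library with A4D and F4D. Across promoters with values in both pairs, the CG difference of A4D and F4D had a Pearson r of −0.03 with that of A18D and F18D (18506 promoters), which are the dried leaves at 18 w, −0.01 with A4 and F4 (18444), −0.0024 with A18 and F18 (18386) and 0.06 with A and F (18457). The corresponding values in CHG were 0.01, −0.01, −0.02 and 0.08, and in CHH 0.07, 0.10, 0.01 and 0.06. Spearman's rho in CHH was larger, at 0.13 with A18D and F18D and 0.19 with A4 and F4. Of the 441 promoters lower in A4D in CG, 430 had values at 18 w in dried leaves, where 46 were again at least 20 points lower in A18D (10.7%) and 55 at least 20 points higher (12.8%). Over all promoters these shares were 2.12 and 1.81%.

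In CHH a shift towards lower levels in acclimated plants was seen in both dried pairs. The median CHH difference was −0.39 points for A4D and F4D, and 59.9% of promoters were lower in A4D. It was −1.16 points for A18D and F18D, with 70.5% lower in A18D, and −2.37 points for A4 and F4, with 67.4% lower in A4, whose levels were low in all contexts. In the other watered pairs it was 0.65 points for A and F and 0.50 points for A18 and F18, the opposite direction. The medians of the dried pairs were also negative in the other contexts. For A4D and F4D they were −0.37 points in CG and −0.08 points in CHG, and for A18D and F18D −0.18 and −0.17 points. With 1 library a group these shifts have no error.

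As whole profiles, A4D and F4D were among the most alike of the 66 pairs of libraries. Over the 18186 promoters measured in all 12 libraries, the mean absolute difference was 4.70 points in CG, the second smallest of all pairs, which ran from 4.67 to 9.91 points. It was 3.73 points in CHG, the fourth smallest, and 2.83 points in CHH, the sixth smallest. The 11 pairs that include A4 had 7.16 points or more in CG, while all pairs without it had 6.56 points or less. Accordingly, 1412 promoters were at least 20 points lower in CG in A4 than in F4, against the 441 lower in A4D than in F4D.

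The list of DNA methylation machinery held 12 genes with a promoter level, and machinery genes without one are not covered. Of the 12 genes 0 were called in the RNA comparison, beside 3 of 11176 joined genes tested. At this share a count of 0 would be found in nearly any list of this size. An unadjusted p under 0.05 was seen in 0 of them, beside 5.04% of the joined genes tested, and the median log2 fold change was −0.0035. Of their promoters only 1 was past 20 points, beside 4.86% of all promoters in at least 1 context. It was that of KZV19573, the largest subunit of RNA polymerase V, which makes the scaffold RNA of RNA-directed DNA methylation. It had 45.2% mCG in A4D and 68.6% in F4D, and its transcript averaged 0.7 FPKM in A4D and 0.713 FPKM in F4D. The promoter of KZV30079, factor of DNA methylation 1 of the same pathway, had 19.8% mCHH in A4D and 33.6% in F4D, while its CG level was 48.2% in A4D and 42.3% in F4D.

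Among the genes of desiccation tolerance, late embryogenesis abundant (LEA) proteins, which protect cells as they dry, had 17 promoters with a median CG difference of 0.49 points, beside −0.37 points over all promoters. In CG 0 of them were higher and 2 lower by 20 points, beside 1.22% higher and 2.37% lower over all promoters. The promoter of KZV51959, a LEA protein 76-like gene, had 54.7% mCG in A4D and 83.1% in F4D, and its transcript stood at 12932, 12719 and 11294 FPKM in A4D and 7030, 10738 and 9349 FPKM in F4D. The promoter of KZV56066, a LEA protein 1-like gene, had 0% mCG in A4D and 22.6% in F4D, beside 30712, 33427 and 29201 FPKM in A4D and 29302, 30076 and 29211 FPKM in F4D. The A4D libraries were the higher ones for KZV51959 and overlapped those of F4D for KZV56066, and neither passed the test (log2 fold changes of 0.47 ± 0.58 and 0.07 ± 0.52, SE, limma adjusted p = 1.0 for both).

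Early light-induced proteins, which bind chlorophyll under stress, were the list with the largest transcript difference. Their 8 promoters were heavily methylated, with a median of 86.2% mCG in A4D and 91.5% in F4D and a median difference of −5.03 points, and they ran from −15.3 to 7.01 points, so that 0 passed 20 points. Of all promoters with a mean CG level of 80 to 90%, 0.81% passed 20 points, and 0.04% did at 90 to 100%. The median log2 fold change of these 8 genes was 1.80 in A4D over F4D, beside −0.02 over all joined genes tested, and 3 had an unadjusted p under 0.05, all higher in A4D, but 0 were called. Over all joined genes tested 5.04% had such a p and 3 of 11176 were called. Photosystem and antenna genes had a median log2 fold change of 0.43 and a median CG difference of 0.71 points, and 0 of 23 promoters were past 20 points in any context. Genes of jasmonate synthesis, which makes a hormone of wounding and drought responses, had a median log2 fold change of −1.12 over 13 tested genes, of which 3 had an unadjusted p under 0.05, all lower in A4D, and 0 were called. Their median CG difference was −0.67 points, and 0 of 14 promoters were past 20 points in any context. Over all promoters 4.86% were past 20 points in at least 1 context, so few or 0 would be found in lists of this size.

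Among 14 autophagy genes, 1 promoter was higher and 2 were lower in A4D in CG, beside 1.22% higher and 2.37% lower over all promoters. The promoter of KZV22312, autophagy protein 5, which helps to extend the autophagosome membrane, had 10.0% mCG in A4D and 65.0% in F4D, with the 8 others measured at 0 to 20%. The promoter of KZV56399, autophagy-related protein 8C, the ubiquitin-like protein attached to that membrane, had 0.926% mCG in A4D and 46.2% in F4D, with the others at 20 to 57.3%. F4D was the one outside the other libraries in KZV22312 and A4D in KZV56399. Neither transcript difference passed the test, with means of 24.9 FPKM in A4D and 21.1 FPKM in F4D for KZV22312 and of 17.4 FPKM in A4D and 19.03 FPKM in F4D for KZV56399.

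Transcription factors of the ERF and DREB families, which act in ethylene and dehydration responses, had 74 promoters, of which 2 were higher and 5 lower in CG and 0 higher and 6 lower in CHG, beside 1.22% higher and 2.37% lower in CG and 0.608% higher and 1.52% lower in CHG over all promoters. KZV24284, an AP2-like ethylene-responsive factor, had 0% mCG in A4D and 46.1% in F4D, and of the other libraries A4 was also at 0% and the remaining 9 at 31.0 to 59.0%. Its transcript stood at 2.59, 2.73 and 3.83 FPKM in A4D and 5.53, 9.74 and 7.01 FPKM in F4D. The A4D libraries all lay below those of F4D, but the difference did not pass the test (log2 fold change −1.04 ± 0.54, limma adjusted p = 0.996). Of 41 NAC factors 0 promoters were higher and 1 lower in CG, of 45 WRKY factors 1 and 3, and of 62 MYB factors 0 and 1.

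Genes of plastid ribosomes, which translate the chloroplast genome, had 3 of 31 promoters higher and 0 lower in CG and the same counts in CHG, beside 1.22% higher and 2.37% lower in CG and 0.608% higher and 1.52% lower in CHG over all promoters. Their median CG difference was −0.67 points. KZV22908, plastid 30S ribosomal protein 2, had 92.7% mCG in A4D and 39.6% in F4D. In the abscisic acid list of 19, 1 promoter was higher and 2 lower in CG, and these include 2 zeaxanthin epoxidases, which make a precursor of the hormone: KZV33169 had 65.6% mCG in A4D and 26.9% in F4D, and KZV31649 had 11.1% in A4D and 58.2% in F4D. The promoters of the 2 enzymes thus went in opposite directions. Genes with transposable-element-like products had 68 promoters with a median of 90.1% mCG in A4D and 91.5% in F4D, and 0 of them were past 20 points in any context. Such levels leave little room in CG, where 0.04% of all promoters at a mean of 90 to 100% passed 20 points.

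The genes that the study singled out as keeping a methylation-linked transcript response for 4 w were next examined in dried leaves. The study picked them from changes during acclimation and drying, and not from A4D against F4D directly. They had to respond in A4D against A4 and not in the same way in F4D against F4. The RNA of both groups thus entered the choice. The study also followed them in plants treated with a methylation inhibitor or a methyl donor. The values below are of another contrast and do not test the link that the study proposes. All 14 had a promoter level in both libraries. Their differences ran from −6.29 to 4.66 points in CG, from −11.0 to 8.38 points in CHG and from −9.003 to 0.55 points in CHH, so 0 were past 20 points, beside 4.86% of all promoters in at least 1 context, a share at which under 1 of 14 would be found. In RNA 0 of the 14 were called and 3 had an unadjusted p under 0.05, all higher in A4D, beside 5.04% of all joined genes tested. These 3, KZV45485, KZV19471 and KZV50189, are those the study lists as raised on drying in tolerant plants. Their count and direction are therefore partly set by the choice. The promoter of KZV50189, a vacuolar amino acid transporter, had 93.7% mCG in A4D and 91.8% in F4D, with transcript levels of 5.92, 6.32 and 29.5 FPKM in A4D and 10.1, 0 and 0 FPKM in F4D. Its libraries overlapped between the groups and the difference did not pass the test (log2 fold change 2.38 ± 1.14, limma adjusted p = 0.945). KZV17830, the auxin repressor IAA14, had 26.7% mCG in A4D and 28.8% in F4D, and KZV19471, a pre-mRNA-splicing factor 38, had 86.8% in A4D and 91.7% in F4D. The transcript of KZV19471 stood at 19.5, 20.4 and 17.9 FPKM in A4D and 6.14, 15.6 and 13.6 FPKM in F4D, with all A4D libraries above those of F4D (0.75 ± 0.36, limma adjusted p = 0.938). KZV45485, a UDP-sugar pyrophosphorylase by its published name and a hypothetical protein in the deposited annotation, stood at 1.52, 2.32 and 0.4 FPKM in A4D and 0.27, 0 and 0 FPKM in F4D, again without overlap (1.07 ± 0.32, limma adjusted p = 0.45), and its promoter had 67.1% mCG in A4D and 66.4% in F4D. The study chose these genes on samples of this series, so they are not independent of it. Of 11 other genes named by the study, 6 had a promoter level, and their CG differences ran from −4.93 to 5.95 points.

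The RNA of the same groups differed in few genes. With limma on log2(FPKM + 1) over all 39 libraries, 1 of 18736 genes was called higher in A4D (0.00534%) and 5 lower (0.0267%), taking an adjusted p up to 0.05 and a log2 fold change of 1 or more in size as a call, and 975 genes (5.2%) had an unadjusted p under 0.05. Of these 6 genes 3 had a promoter level, all of hypothetical products and lower in A4D. KZV52178, similar to the calcium-binding protein PBP1, was listed at 0 FPKM in all A4D libraries and at 5.09, 6.58 and 5.52 FPKM in F4D (limma adjusted p = 5.5e-05). Its promoter had 28.7% mCHG in A4D and 48.1% in F4D, a difference of −19.4 points. KZV50901, similar to flowering-promoting factor 1, stood at 0.68, 0 and 0.64 FPKM in A4D and at 21.1, 7.57 and 9.71 FPKM in F4D (log2 fold change −3.17 ± 0.54, limma adjusted p = 0.0084), and its promoter had 44.5% mCG in A4D and 47.6% in F4D. For KZV53805, at 0.16, 0 and 0 FPKM in A4D and 5.9, 4.05 and 0.8 FPKM in F4D (log2 fold change −1.92 ± 0.30, limma adjusted p = 0.003), the promoter had 23.3% mCG in A4D and 18.0% in F4D. The called genes thus had a transcript difference with promoter differences under 20 points, down in 2 and up in 1 in CG.

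The transcripts of genes with a promoter past 20 points were then set beside all others. Only 3 of the 11176 joined genes tested were called, and this share is the background for the counts of 0 that follow. Of the 185 tested genes with a promoter higher in A4D in CG, 0 were called and 7 had an unadjusted p under 0.05 (3.78%). Of the 348 with a promoter lower in A4D, 0 were called and 16 had such a p (4.598%). Over all joined genes tested 563 of 11176 (5.04%) had such a p. The median log2 fold change was −0.02 for genes with a promoter higher in A4D and −0.05 for those lower, beside −0.02 for all. In CHG it was −0.03 for those higher and −0.06 for those lower, and in CHH −0.05 and −0.07.

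Across the 11176 genes, the log2 fold change and the methylation difference had a Pearson r of 0.0067 in CG, 0.015 in CHG and 0.018 in CHH. These are descriptions across genes, which are not independent replicates, and they rest on the join of promoter to gene by locus tag. Fimbrin-1 (KZV36203), with a promoter lower by 61.0 points in CG, stood at 19.6, 19.9 and 11.9 FPKM in A4D and 16.9, 19.2 and 13.6 FPKM in F4D. KZV17513, with a promoter methylated in A4D and not in F4D, stood at 15.98, 9.25 and 9.57 FPKM in A4D and 13.8, 7.72 and 6.70 FPKM in F4D. The malonate-CoA ligase KZV26078, also methylated in A4D and not in F4D, stood at 35.2, 19.7 and 14.4 FPKM in A4D and 30.6, 33.3 and 33.1 FPKM in F4D. The libraries of the groups overlapped in all 3 genes. MLP-like protein 43 (KZV42261), with the promoter more methylated in A4D, stood at 486, 544 and 460 FPKM in A4D and 385, 111 and 228 FPKM in F4D, all A4D libraries above those of F4D, without passing the test (log2 fold change 1.21 ± 0.62, limma adjusted p = 0.992). The papain-family cysteine protease KZV42474, with 59.0% mCG in A4D and 1.52% in F4D, stood at 2567, 2179 and 2155 FPKM in A4D and 1640, 1658 and 1597 FPKM in F4D, again with no overlap and without passing (0.49 ± 0.40, limma adjusted p = 1.0). The auxin-repressed gene KZV27546 had 5.6% mCG in A4D and 57.3% in F4D, with 7.46, 10.4 and 5.99 FPKM in A4D and 12.7, 15.0 and 15.2 FPKM in F4D (−0.80 ± 0.34, limma adjusted p = 0.836). These last 3 genes were picked here because their libraries did not overlap, and in them the group with the more methylated promoter had the higher transcript level. KZV24284, given above, did not overlap either and went the same way. So did KZV21642, a protein phosphatase with a promoter lower in A4D by more than 20 points in CHG. KZV51959 and KZV19471, given above, did not overlap and went the other way, KZV19471 with a promoter difference under 20 points. KZV45485, also given above, did not overlap, and its promoter differences were under 20 points, up in CG and down in CHG and CHH. This list is not complete, and the share of all tested genes without overlap was not counted. The pick was made on the transcript values, so no direction can be read from it.

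**Figure D5:**
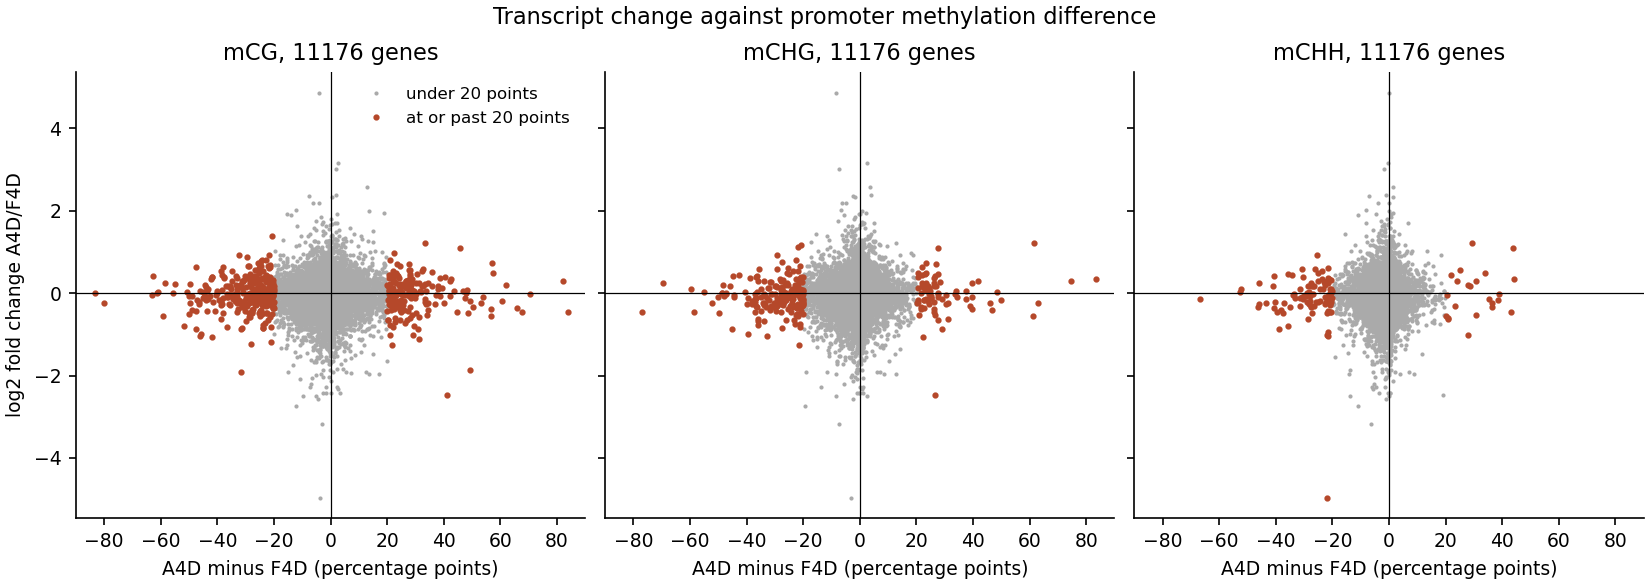
Transcript log2 fold change A4D/F4D (y axis, on the log2(FPKM + 1) scale) against the promoter methylation difference A4D minus F4D (x axis, percentage points) for 11176 genes in each context, with promoters at or past 20 points in red. The points show no slope, with a Pearson r of 0.0067 in CG, 0.015 in CHG and 0.018 in CHH.

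Within each library, by contrast, levels of methylation and of transcripts were related in CG and CHG. Among 12792 joined genes with an entry in the expression table, the quartile with the most mCG had a median of 1.94 FPKM in A4D and 1.97 FPKM in F4D, and the quartile with the least had 3.88 FPKM in A4D and 4.22 FPKM in F4D. In CHG the most methylated quartile had 2.23 FPKM in A4D and 2.25 FPKM in F4D, against 3.98 FPKM in A4D and 4.41 FPKM in F4D in the least methylated. In CHH the medians were 3.91 FPKM in A4D and 4.47 FPKM in F4D in the most methylated quartile, and 4.21 FPKM in A4D and 4.47 FPKM in F4D in the least. The rank correlation across genes was weak, −0.11 in A4D and −0.12 in F4D for CG, −0.10 in both for CHG and −0.01 in both for CHH. The relation was thus nearly the same in the acclimated and the non-acclimated dried leaves. It rests on the join of promoter to gene by locus tag. Whether the methylation values belong to the tag of their row was not tested on the values, as set out below.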

How the data were processed

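The authors mapped bisulfite reads with BSMAP, allowing up to 2 mismatches. They deposited for each promoter and context a methylation fraction, by their description the average over its cytosines, printed here as a percentage. Read numbers are not in these deposited tables, and depth per promoter was not analysed here. The deposited FPKM values came from HISAT, StringTie 1.0.4, Bowtie2 2.2.5 and RSEM, per the labels and the study's methods. For the authors' genome build, a name was not given in the sources used here.

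Promoters were joined to expression on the locus tag, which matched 12792 of 18593. The FPKM column beside the methylation fractions follows the locus tag 1 before its own in the expression table (Spearman 0.961, against 0.0896 at the own tag), so it was used for that check alone, and 10 such columns of other libraries were not used. By file order the identifiers fit their own rows: of 623 placed pairs listed in reverse order, all 623 lie under 2000 bases apart. At the tag before it was 53.5% of 692 pairs. This check covers the order of the identifiers alone. That the methylation fractions belong to the identifier of their row was taken from it. Whether they are shifted like the FPKM column was not tested on the values. Pairs of neighbouring promoters sharing all 6 values numbered 20, with 0 past 20 points.

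Genes reaching 1 FPKM in 3 or more libraries (18736 of 26693) were fitted with limma 3.58.1 in R 4.3.3 on log2(FPKM + 1), 1 mean per group over 39 libraries, eBayes with trend, two-sided, Benjamini-Hochberg adjusted. Fold changes are on the log2(FPKM + 1) scale, which understates those of low genes. SEs and p-values rest on the spread between replicate libraries taken over all 13 groups, and not on the A4D and F4D libraries alone. The script was tested on simulated data. Named genes are the 5 largest differences per context and direction with a named product and at least 1 FPKM in A4D or F4D, up to 2 members per list past 20 points in CG or CHG, genes the study names, and up to 10 called genes with such a promoter (there were 0). Of the promoters lower in CHH, 1 that the rule names is not reported here. The 38 lists come from word searches in the deposited annotation or are genes named by the study. The promoters and lists were chosen with earlier results of these data known. Other genes were named after their values were seen, the called genes among them. Tables were handled with pandas 2.3.3 in Python 3.11.15.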

Additional observations from a re-analysis of the deposited data

How the results depend on the processing

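With 10 points as the smallest change, 978 promoters were higher and 1502 lower in A4D in CG, 528 and 1101 in CHG and 189 and 694 in CHH. With 30 points, 79 were higher and 166 lower in CG, 34 and 104 in CHG and 12 and 37 in CHH. Lower promoters outnumbered higher ones at each of these thresholds. Centring, leaving out levels of 0 and 100%, leaving out transposable-element-like products, requiring all 12 libraries and, chosen after seeing the data, counting promoters that share all values once moved each count by less than 1.5 times. Leaving out transposable-element-like products and counting shared values once could not change a count, as 0 promoters of either kind were past 20 points. The medians kept their sign without levels of 0 and 100%.

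In RNA, 0 genes were called higher and 3 lower with a pseudocount of 0.1, 5 and 12 with median-ratio scaling, and 0 and 0 with limma on the A4D and F4D libraries alone, where 923 genes had an unadjusted p under 0.05. Leaving out 1 library gave 0 to 3 higher and 2 to 9 lower. Leaving out A4D replicate 3 or F4D replicate 1 gave 0 higher and 2 lower, and leaving out F4D replicate 3 gave 1 and 9. With no filter on low values 1 was called higher and 4 lower. Replicate numbers did not pair the libraries, since deviations of same-numbered libraries correlated at −0.12, 0.00 and −0.13, and the replicate block gave 1 higher and 5 lower. Across promoters past 20 points alone, r with the transcript change was −0.0075 in CG and 0.074 in CHH. The methylation counts rest on 1 pooled library a group, so neither the spread between plants nor depth per promoter is known.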
